A study of Mus musculus with 7 samples.

Results

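Histone lysine demethylases were followed through 10 genes: Kdm1a, Kdm2a, Kdm2b, Kdm3a, Kdm3b, Kdm4a, Kdm4b, Kdm4c, Kdm5b and Kdm6b. They were taken by symbol from a list of the family, and each of the 10 was represented by 1 probe set with a single gene symbol, out of 19938 genes measured that way. RNA of mouse cells was hybridised to 7 Affymetrix arrays, 1 sample each. Mouse embryonic fibroblasts (MEFs) of the 129/OG2 background, isolated at 13.5 days post coitum, gave 1 array in FBS (serum) medium and 1 in iCD1, a medium that the labels do not describe further. Fibroblasts infected with Oct4 alone had given induced pluripotent stem (iPS) lines O4-1, O4-2 and O4-4. These were grown in KSR (serum replacement) medium, 1 array each, and O4-1 was also grown in N2B27(2i), 1 array, where 2i is a pair of kinase inhibitors used to hold the naive state. For embryonic stem (ES) cells, from OG2 mice, N2B27(2i) was likewise used, on 1 array. OG2 mice carry a green fluorescent reporter driven by Oct4 regulatory sequence, so MEFs and ES cells shared it. The samples' titles set the groups here, since a common description calls every sample iPS cells after infection and another label derives the ES sample from fibroblasts. No uninfected cell was grown in KSR and no MEF in 2i, so cell type and medium changed together in the comparison of iPS lines with MEFs. Only the 3 KSR lines were replicated, and the labels do not say whether they came from separate infections. The p-values measure only the spread between these lines, except where arrays of several groups were pooled as an alternative. With so few arrays, every value is of limited precision.

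Methyl groups on histone lysines are written by methyltransferases and erased by these enzymes. Kdm1a (LSD1) is a flavin-dependent amine oxidase, whereas the Kdm2 to Kdm6 proteins carry a JmjC domain that uses iron, oxygen and 2-oxoglutarate and is kept active by vitamin C. Pluripotent cells hold developmental genes under opposing marks, and H3K9 methylation is a known barrier when fibroblasts are reprogrammed. An array reports messenger RNA, not enzyme activity or the marks themselves.

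The labels were checked on marker genes. The mean log2 value of 8 pluripotency markers lay between 9.85 and 10.43 on the 5 pluripotent arrays and at 4.15 and 4.16 on the MEF arrays. The mean of 9 fibroblast markers lay at 9.07 and 10.03 in MEFs and between 5.97 and 7.14 on the pluripotent arrays. In bulk RNA, fewer cells of a type and less RNA per cell cannot be told apart. Values are log2 expression and differences are on the log2 scale, where 1 is a 2-fold change. A probe set's level is not set against that of another gene.

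The promoter windows of the 4 genes that passed as higher in the KSR lines than in MEFs are shown first. RefSeq (GRCm38.p6) windows of 300 bases, 250 before and 50 after a transcript start, matched 6 of the 10 genes. Not every chromosome was searched for the 10 genes, and Kdm2a, Kdm3b, Kdm4b and Kdm6b had no window among those searched. For each of the 4 genes that rose the window with the highest GC content is printed 5′ to 3′, and the capitals mark matches on either strand to an octamer bound by Oct4 (ATGCAAAT), the core of the hypoxia response element (ACGTG), a GC box (GGGCGG) or a CCAAT box (CCAAT). They lie at chr4:136602674-136602973 (minus strand), chr6:71632637-71632936 (minus strand), chr4:74251629-74251928 (plus strand) and chr1:134559928-134560227 (plus strand).
Kdm1a: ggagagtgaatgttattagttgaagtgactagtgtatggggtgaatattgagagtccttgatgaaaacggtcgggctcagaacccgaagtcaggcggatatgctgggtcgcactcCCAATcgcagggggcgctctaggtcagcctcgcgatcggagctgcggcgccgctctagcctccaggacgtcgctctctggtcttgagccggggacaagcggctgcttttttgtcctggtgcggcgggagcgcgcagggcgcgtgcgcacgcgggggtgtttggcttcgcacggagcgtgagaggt
Kdm3a: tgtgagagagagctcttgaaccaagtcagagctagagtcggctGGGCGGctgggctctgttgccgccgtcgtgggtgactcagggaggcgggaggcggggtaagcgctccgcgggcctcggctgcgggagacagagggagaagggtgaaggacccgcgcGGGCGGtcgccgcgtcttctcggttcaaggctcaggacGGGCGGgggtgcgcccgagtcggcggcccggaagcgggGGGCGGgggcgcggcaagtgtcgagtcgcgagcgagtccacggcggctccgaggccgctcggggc
Kdm4c: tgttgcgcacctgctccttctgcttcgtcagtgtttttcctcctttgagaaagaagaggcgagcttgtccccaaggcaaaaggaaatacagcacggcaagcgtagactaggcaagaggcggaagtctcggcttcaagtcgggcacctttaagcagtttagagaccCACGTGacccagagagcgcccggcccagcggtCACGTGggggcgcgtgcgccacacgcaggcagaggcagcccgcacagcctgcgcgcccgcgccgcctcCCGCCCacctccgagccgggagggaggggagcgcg
Kdm5b: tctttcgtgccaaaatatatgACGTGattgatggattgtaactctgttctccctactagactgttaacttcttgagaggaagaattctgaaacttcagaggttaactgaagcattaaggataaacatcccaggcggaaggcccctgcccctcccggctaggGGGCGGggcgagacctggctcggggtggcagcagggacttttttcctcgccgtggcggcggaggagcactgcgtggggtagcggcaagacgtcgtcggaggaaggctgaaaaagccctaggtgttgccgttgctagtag

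The octamer letters occurred in 0 of the windows of the 6 matched genes and in 1.74% of all 32851 windows of the table. ACGTG occurred in 1 of the windows of Kdm4c, as 4 matches that are 2 copies of CACGTG each read on both strands, and once in that of Kdm5b, against 19.6% of all windows. No window of Kdm3a held those letters, and neither did most windows of the table. Kdm3a is known as a gene induced under hypoxia, and bases outside its windows were not searched. A GC box was present in the printed windows of Kdm3a (4 matches), Kdm4c (1) and Kdm5b (1), against 35.7% of all windows. A CCAAT box was present once in the Kdm1a window, against 37.4% of all windows. Matches to different motifs did not overlap in these windows. Among the windows of Kdm3a, and likewise among those of Kdm2b, some overlap one another. GC content was 73.0% in the printed Kdm3a window, 64.7% in Kdm4c, 61.3% in Kdm1a and 54.7% in Kdm5b, with a median of 52.7% over all windows. The windows of Kdm3a and Kdm4c were picked for GC content, so their GC share and GC boxes are no result against all windows. Their other windows had 60.7% and 49.0% for Kdm3a, with 3 and 0 GC boxes, and 40.0% for Kdm4c, with 0. Kdm2b has starts 88.7 kb apart in this table. The upstream starts belong to long forms and the internal ones to short forms, which lack the JmjC domain, and its probe set value was not split by form here.

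The KSR lines were compared with MEFs to see which demethylases differ between fibroblasts and the iPS lines made from them. Kdm5b, Kdm3a, Kdm4c and Kdm1a rose, no gene of the family passed as lower, and 6 of the 10 did not pass. In limma 4 of 10 rose at an adjusted p under 0.05, where 12.1% of all genes rose, 14.3% fell and 26.4% passed in either direction. The median difference was 0.88 over the 10 genes and 0 over all genes. All 5 pluripotent arrays lay above both MEF arrays for 6 of the 10 genes and below both for 2, against 21.9% and 22% of all genes. The calls rested on having all 3 lines. When O4-1 was left out, and likewise O4-2, 0 of the 10 passed in limma, with 4 at an unadjusted p under 0.05 each time. Of all genes 0 passed as well, with 5804 and 6924 at an unadjusted p under 0.05, so this holds for each gene and list compared with MEFs in what follows. Without line O4-4 limma called Kdm4c and Kdm5b. With MEFs in FBS alone, or MEFs in iCD1 alone, as the reference it called Kdm5b only.

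**Figure D1:**
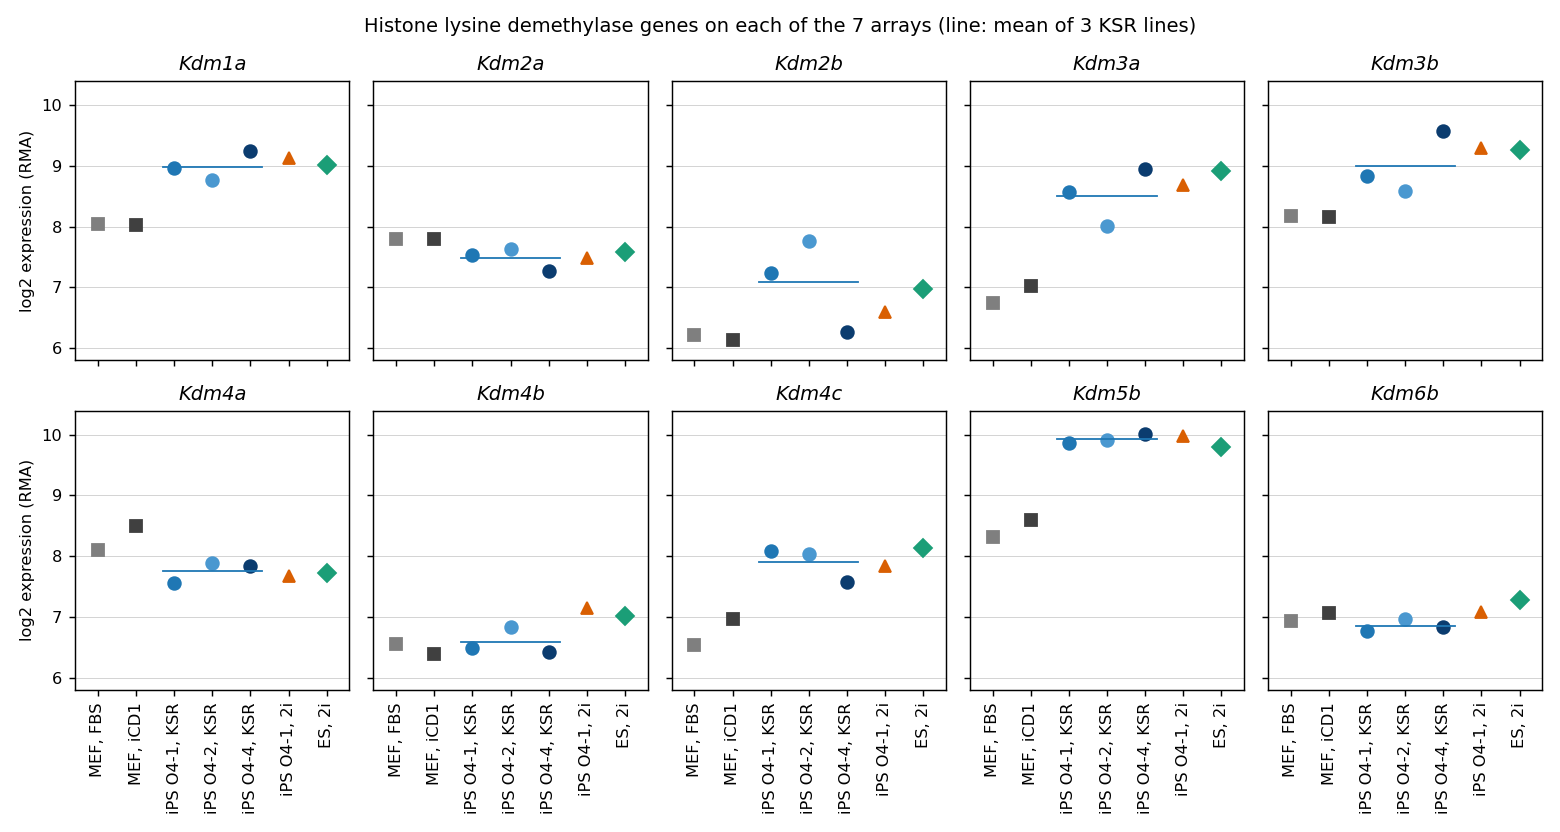
Log2 expression of the 10 demethylase genes (one panel each, shared vertical axis) on the 7 arrays: squares are MEFs, circles iPS lines in KSR, triangles iPS line O4-1 in 2i and diamonds ES cells in 2i, and the line is the mean of the 3 KSR lines. The pluripotent points of Kdm1a, Kdm2b, Kdm3a, Kdm3b, Kdm4c and Kdm5b sit above both MEF squares, and the 3 KSR circles of Kdm2b spread from 6.27 to 7.76.

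Kdm5b (JARID1B) removes methyl groups from H3K4, the mark of active promoters. MEFs in FBS had 8.31 and MEFs in iCD1 8.60, while lines O4-1, O4-2 and O4-4 had 9.86, 9.91 and 10.02. The level was 9.98 in iPS cells in 2i and 9.80 in ES cells. All pluripotent arrays were thus above both fibroblast arrays, within a narrow band. The rise of Kdm5b was 1.47 ± 0.10 (limma, adjusted p = 0.00786), or 2.78-fold, where ± is the SE and 3 KSR lines were set against 2 MEF arrays. This was the call that held in most settings, in 10 of 12 alternatives. Among the 12, averaging of probe sets leaves the values of the family unchanged, since each gene has 1 probe set. Kdm1a, which acts on H3K4 inside the CoREST repressor complex, had levels of 8.04 and 8.03 in the FBS and iCD1 MEFs, and of 8.97, 8.77 and 9.24 in the KSR lines. It stood at 9.14 in iPS cells and 9.01 in ES cells in 2i, so the groups did not overlap. Its rise was 0.96 ± 0.18 (limma, adjusted p = 0.0350), or 1.94-fold.

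Kdm3a (JMJD1A) and Kdm3b remove H3K9 mono- and dimethylation, a repressive mark. Kdm3a had the widest range of group means in the family, 2.18. MEFs had 6.74 in FBS and 7.03 in iCD1, and lines O4-1, O4-2 and O4-4 had 8.57, 8.01 and 8.95. The level was 8.68 in iPS cells in 2i and 8.92 in ES cells. The lowest pluripotent array, line O4-2, was still above both MEF arrays. The rise was 1.63 ± 0.33 (limma, adjusted p = 0.0419), or 3.09-fold. Kdm3b lay at 8.18 and 8.16 in MEFs and at 8.84, 8.59 and 9.57 in the KSR lines, and at 9.29 and 9.26 in iPS and ES cells in 2i. Its groups did not overlap either, but the KSR lines spread over 0.98 and the difference of 0.83 ± 0.36 did not pass (limma, adjusted p = 0.190). When all 5 pluripotent arrays were put into 1 group against both MEF arrays, Kdm3b was 0.94 ± 0.25 higher and passed (limma, adjusted p = 0.0193, with a range from 0.0193 to 0.355 over 12 alternatives). It passed in 1 of the 12. That grouping counts line O4-1 in both media and the ES cells as replicates. Its p-value thus measures a spread that mixes lines, media and cell origin.

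The Kdm4 enzymes remove H3K9 and H3K36 trimethylation, and the 3 measured here went different ways. Kdm4c (JMJD2C) read 6.53 and 6.97 in the FBS and iCD1 MEFs, 8.09, 8.03 and 7.58 in the KSR lines, 7.83 in iPS cells in 2i and 8.13 in ES cells. It rose by 1.15 ± 0.20 (limma, adjusted p = 0.0318), or 2.22-fold. Kdm4a was higher in the fibroblasts, at 8.10 in FBS and 8.49 in iCD1 against 7.55, 7.89 and 7.84 in the KSR lines, 7.67 in iPS cells and 7.72 in ES cells in 2i. No pluripotent array reached the MEF values, yet the difference of -0.54 ± 0.15 did not pass (limma, adjusted p = 0.0795). It passed in 3 of 12 alternatives, among them quantile normalization, at -0.60 (limma, adjusted p = 0.0491, with a range from 0.0178 to 0.316 over the alternatives). Kdm4b was at 6.56 and 6.38 in MEFs and at 6.48, 6.84 and 6.42 in the KSR lines, so that these groups overlapped. Its difference was 0.11 ± 0.17 (limma, adjusted p = 0.706), with a 95% interval from -0.39 to 0.61.

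Kdm2a and Kdm2b remove H3K36 dimethylation and bind unmethylated CpG-rich DNA, and Kdm2b brings a Polycomb complex, variant PRC1.1, to such sites. Kdm2a had 7.79 and 7.80 in the FBS and iCD1 MEFs and 7.53, 7.63 and 7.27 in the KSR lines, with 7.49 and 7.59 in iPS and ES cells in 2i. All 5 pluripotent values were below both MEF values, by little, and the difference of -0.32 ± 0.15 did not pass (limma, adjusted p = 0.218). Kdm2b was at 6.21 and 6.13 in MEFs, 7.23 in line O4-1, 7.76 in line O4-2 and 6.27 in line O4-4. Line O4-4 was thus close to the MEF arrays, and the 2i arrays lay between the lines, at 6.59 for iPS and 6.98 for ES cells. The difference of 0.92 ± 0.52 did not pass (limma, adjusted p = 0.297), with a 95% interval from -0.59 to 2.42. Without line O4-4 it was 1.33 and still did not pass (limma, adjusted p = 0.0877, with a range from 0.0877 to 0.530 over the alternatives).

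Kdm6b (JMJD3), which removes the Polycomb mark H3K27 trimethylation, did not pass. It had 6.93 and 7.07 in the FBS and iCD1 MEFs and 6.77, 6.96 and 6.83 in the KSR lines. The groups overlapped, and the difference of -0.15 ± 0.10 had a 95% interval from -0.45 to 0.16 (limma, adjusted p = 0.399).

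**Figure D2:**
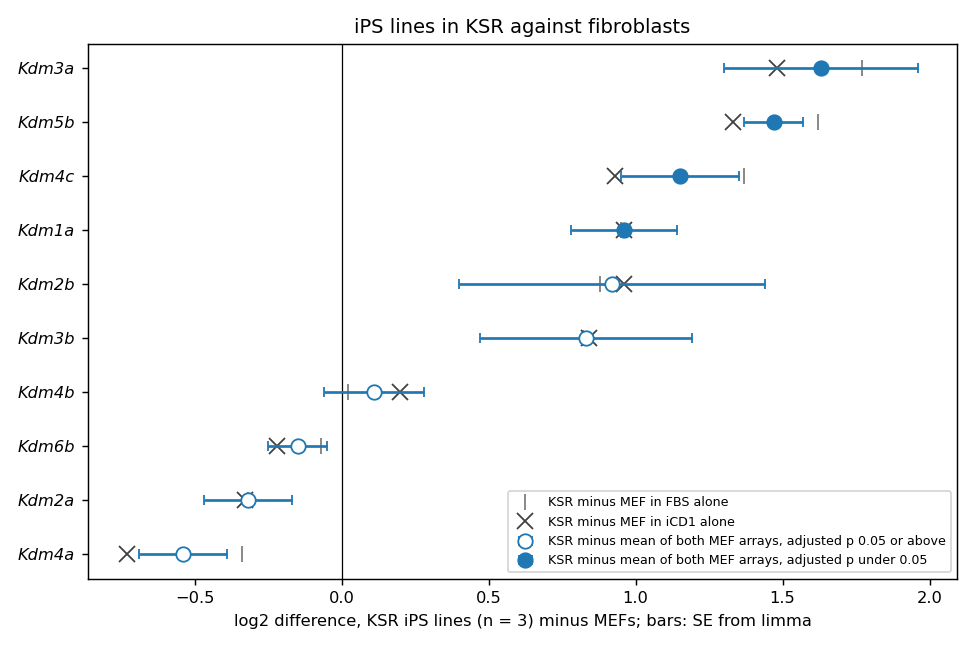
Log2 difference between iPS lines in KSR (n = 3) and the mean of both MEF arrays, with SE bars from limma, filled where the adjusted p was under 0.05. Ticks and crosses give the difference from MEFs in FBS alone and in iCD1 alone, and Kdm3a, Kdm5b, Kdm4c and Kdm1a are the filled points, at 1.63, 1.47, 1.15 and 0.96.

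The KSR lines differed from each other most in Kdm2b. Its SD over the 3 lines was 0.76, and 1.07% of all genes had a higher one. The SD was 0.51 for Kdm3b and 0.47 for Kdm3a, exceeded by 3.80% and 4.83% of genes, and it was 0.08 for Kdm5b, exceeded by 80.6%. The median SD was 0.23 over the 10 genes and 0.16 over all genes. Line O4-4 was the highest of the lines for Kdm1a, Kdm3a, Kdm3b and Kdm5b and the lowest for Kdm2a, Kdm2b, Kdm4b and Kdm4c. Relative to the mean of the other lines it was 0.86 higher in Kdm3b and 0.66 higher in Kdm3a, while Kdm2b was at -1.23 and Kdm4c at -0.48. These are differences of 1 line without a test. Kdm2b differed 2-fold between O4-2 and O4-4, as the 1 gene of the 10 to do so, where 2.83% of all genes did. Between O4-1 and O4-2 (0.612% of all genes) and between O4-1 and O4-4 (1.55%) none of the 10 differed 2-fold.

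Line O4-4 was also set beside the other lines on markers of cell types and states. The mean of 9 fibroblast markers was 7.14 in O4-4 against 6.63 and 6.54 in O4-1 and O4-2, and 6 of the 9 were highest there. The other 3, Thy1, Pdgfra and Twist2, were lowest in O4-4. Of 5 macrophage markers all 5 were highest in O4-4, at a mean of 4.58 against 4.31 and 4.09. Apart from Cd68, these genes lay below the array medians in the KSR lines. Some hardly differed, such as Csf1r at 4.08, 4.07 and 4.11 in O4-1, O4-2 and O4-4. Of 8 pluripotency markers 6 were highest in O4-4, at a mean of 10.35 against 10.08 and 9.85. The other 2, Pou5f1 and Tdgf1, were lowest there. Of 4 muscle markers 0 were highest and 3 lowest in O4-4, and of 5 endoderm markers 0 were highest and 2 lowest. The 4 endothelial markers were split, with 2 highest and 2 lowest. Of 3 neural markers 1 was highest and 2 lowest, and of 3 trophoblast markers 1 was highest and 1 lowest. The part of all these markers in the values of the demethylase genes was not tested.

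MEFs in iCD1 and in FBS differ, by their labels, in the medium alone. With 1 array each there is no test. None of the 10 genes differed 2-fold, where 2.70% of all genes did, and their median difference was 0.08. The largest were Kdm4c, 0.43 higher in iCD1, Kdm4a, 0.39 higher, and Kdm3a and Kdm5b, each 0.29 higher. Kdm4b was at -0.18, Kdm2b at -0.08 and Kdm6b at 0.15. Kdm1a, Kdm3b and Kdm2a lay within 0.02 of their FBS values. The difference in Kdm4a had the direction opposite to its difference in iPS lines, and those in Kdm3a, Kdm4c and Kdm5b the same direction. Both comparisons use these MEF arrays. Outside the 10 genes, the JmjC genes Kdm7a and Jarid2 were 1.13 and 1.09 higher in iCD1, 2 of the 15 other genes of this kind.

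The 2i cultures were compared with the KSR lines to see how the demethylases differ between these pluripotent cultures. For ES cells origin and medium changed together, since no ES cells were grown in KSR. In limma 0 of 10 genes passed for iPS cells in 2i and 0 of 10 for ES cells in 2i, where 0% of all genes passed in each. At an unadjusted p under 0.05 the counts were 0 and 1 of the 10, and 1339 and 1746 of all genes. Both comparisons use the same KSR arrays. The median differences were 0.10 and 0.17. Kdm4b was above all 3 KSR lines on both 2i arrays, at 7.14 in iPS and 7.01 in ES cells against at most 6.84 in KSR. For iPS cells this was a difference of 0.56 ± 0.22, with a 95% interval from -0.08 to 1.19 (limma, adjusted p = 0.727). Kdm6b was also above all KSR lines on both arrays, at 7.08 in iPS and 7.27 in ES cells against at most 6.96. For ES cells the difference was 0.42 ± 0.13 (limma, adjusted p = 0.571), and this was the gene of the family past the unadjusted threshold. Both 2i arrays were also put into 1 group, which mixes iPS and ES cells. Kdm4b was then 0.49 ± 0.16 and Kdm6b 0.32 ± 0.12 higher, and neither passed (limma, adjusted p = 0.503 and 0.521). For iPS cells 2 of the 10 genes lay above all KSR lines and 0 below, against 27.4% and 23.7% of all genes. For ES cells 3 lay above and 1 below, against 26.3% and 27% of all genes.

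For the genes that rose over MEFs the intervals against KSR were wide. Kdm3a was 0.17 ± 0.42 higher in iPS cells in 2i (interval from -1.04 to 1.37) and 0.41 ± 0.42 higher in ES cells (from -0.79 to 1.61). The interval of Kdm5b was narrower, from -0.30 to 0.41 for iPS and from -0.49 to 0.22 for ES cells. Kdm2b was at -0.49 ± 0.66 in iPS and -0.11 ± 0.66 in ES cells, with intervals from -2.40 to 1.41 and from -2.01 to 1.80. In the order of group means, the MEF arrays were the lowest for Kdm1a, Kdm2b, Kdm3a, Kdm3b, Kdm4c and Kdm5b, and the highest for Kdm2a and Kdm4a. The order among the KSR, iPS 2i and ES 2i groups is not settled for any of the 10, since 0 of their differences tested in limma passed. The fibroblast marker mean was 5.97 in iPS cells in 2i, below the 6.54 to 7.14 of the KSR lines, and 6.68 in ES cells, and its part in these values was not tested.

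**Figure D3:**
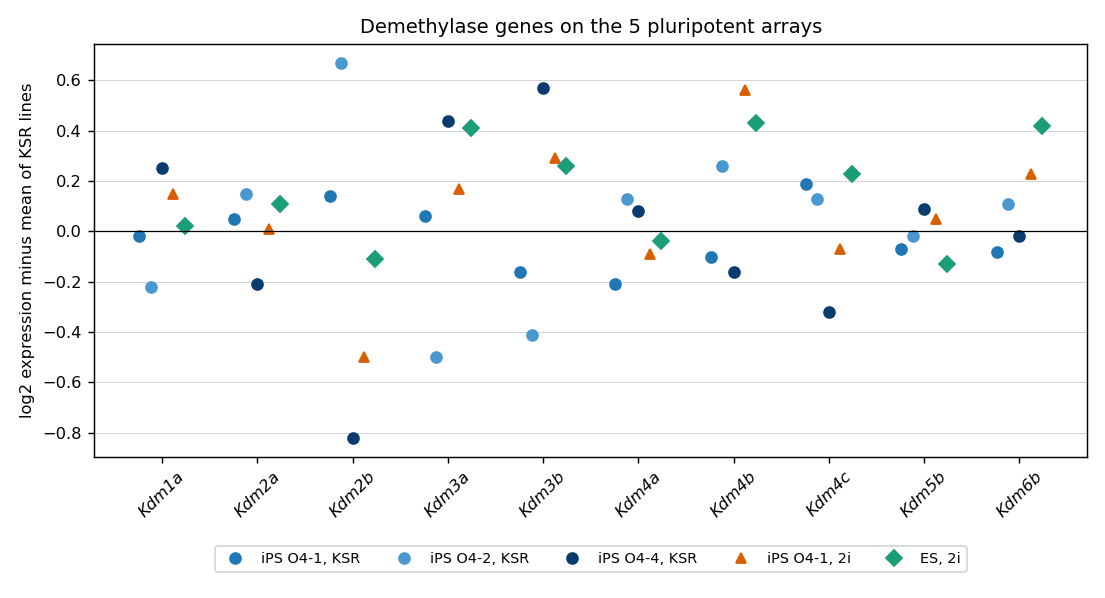
Log2 expression of each demethylase gene on the 5 pluripotent arrays minus the mean of the 3 KSR lines, with circles for KSR lines, triangles for iPS line O4-1 in 2i and diamonds for ES cells in 2i. Kdm2b shows the widest spread of circles, and the triangle and diamond of Kdm4b and Kdm6b lie above all circles.

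Line O4-1 in both media gives a comparison within 1 line, with 1 array each and no test. Kdm4b was at 7.14 in 2i and 6.48 in KSR, a difference of 0.66, and Kdm2b was at 6.59 and 7.23, a difference of -0.64. Kdm3b was 0.45 and Kdm6b 0.31 higher in 2i, Kdm4c was at -0.26, and the other 5 genes lay between -0.04 and 0.17. None of the 10 differed 2-fold, where 1.43% of all genes did. ES and iPS cells were also compared in the same 2i medium. Kdm2b was 0.39 higher in ES cells, Kdm4c 0.30 and Kdm3a 0.24, Kdm5b was at -0.19, and none differed 2-fold, where 0.978% of all genes did.

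Profiles over the 7 arrays were compared after each gene was centred on its own mean, with the root mean square difference as the measure of likeness. For the 3 genes with the widest range of group means the closest genes were as follows. Kdm3a was nearest to the autophagy kinase gene Ulk1 (0.119), the histone acetyltransferase gene Kat2b (0.125) and Bclaf3 (0.130). Kdm5b was nearest to Mtss1 (0.0735), Bex2 (0.0853) and the thymidylate kinase gene Dtymk (0.0979). Kdm4c was nearest to the kinase gene Map3k9 (0.0979), Trim24 (0.134) and Klhl8 (0.135). Within the family the closest pair was Kdm1a and Kdm3b, at 0.175. These are descriptions over 7 arrays, 5 of them of pluripotent cells.

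Other members of the demethylase and JmjC families also went both ways. Of 15 measured, 5 rose and 1 fell in the KSR lines (limma, over all genes), with a median difference of 0.31, where 12.1% of all genes rose and 14.3% fell. Jarid2, a JmjC protein without demethylase activity that works with Polycomb, rose by 2.47 ± 0.11, with 9.72, 9.53 and 9.56 in the KSR lines against 6.59 and 7.68 in MEFs in FBS and iCD1. Riox1 and Jmjd1c rose by 1.06 ± 0.19 and 1.02 ± 0.16, Riox2 also rose, and Kdm6a (UTX), which like Kdm6b acts on H3K27, rose by 0.84 ± 0.16. Phf2, a JmjC protein linked to H3K9 demethylation, fell by 1.38 ± 0.26 (limma, adjusted p = 0.0346), from 6.95 and 6.78 in MEFs to 5.15, 5.44 and 5.86 in the lines. Kdm5a and Kdm5c, relatives of Kdm5b, were 0.47 ± 0.16 and 0.23 ± 0.09 higher without passing (limma, adjusted p = 0.116 and 0.153). Kdm6a, Kdm5a and Kdm5c are named as close relatives, chosen after their values were seen.

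The enzymes that write the same marks were placed beside them, and their counts stand against the same 12.1% and 14.3% of all genes. For H3K9, 2 of 5 methyltransferase genes rose and 0 fell, Suv39h2 by 1.33 ± 0.15 and Setdb1 by 1.14 ± 0.16 (limma, adjusted p = 0.0141 and 0.0196). Ehmt2 (G9a) did not pass, at -0.37 ± 0.12. For H3K4, 5 of 10 genes rose and 0 fell. The shared core subunits Wdr5, Dpy30 and Ash2l rose by 1.86 ± 0.18, 1.74 ± 0.20 and 1.17 ± 0.12, and the catalytic subunit gene Kmt2b by 0.81 ± 0.11. Rbbp5, the other core subunit, was 0.51 ± 0.19 higher and did not pass (limma, adjusted p = 0.149). For H3K36, Nsd1 rose by 0.78 ± 0.15 and Nsd3 fell by 0.88 ± 0.09, and 3 of 5 did not pass. With so few genes the H3K36 counts are no result about that list. For H3K27 all 4 of the PRC2 genes measured rose, Eed by 1.59 ± 0.20, Suz12 by 1.35 ± 0.22, Ezh2 by 1.1 ± 0.21 and Ezh1 by 0.57 ± 0.11 (limma, adjusted p from 0.0165 to 0.0387). The medians of these lists were 0.74, 0.66, 0.06 and 1.23, against 0 over all genes.

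**Figure D4:**
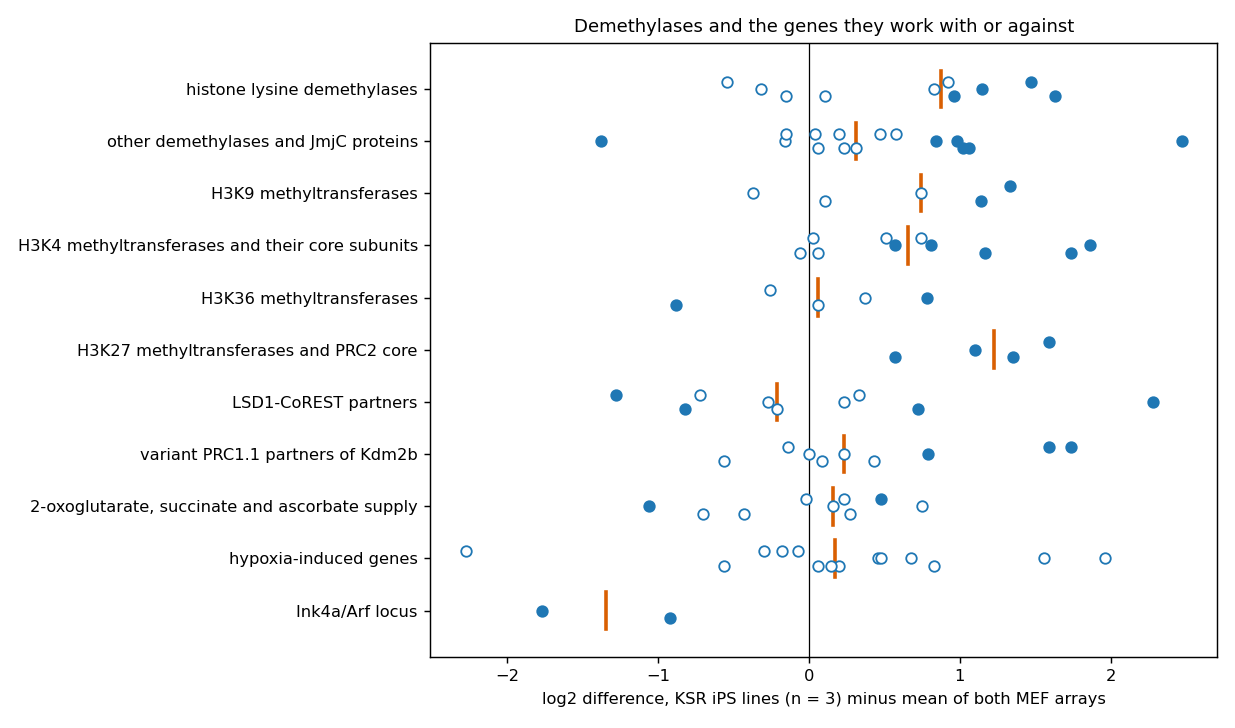
Log2 difference between iPS lines in KSR (n = 3) and the mean of both MEF arrays for each gene (circle) of the demethylase list and of 10 related lists, filled where limma's adjusted p was under 0.05, with the list median as a bar. The demethylases range from -0.54 to 1.63, and the 4 PRC2 genes are all filled and above 0.

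Of 9 partners of Kdm1a in the CoREST complex 2 rose and 2 fell, with a median of -0.21, where 12.1% of all genes rose and 14.3% fell. With so few genes these counts are no result about the list. The scaffold gene Rcor2 rose by 2.28 ± 0.18, from 5.92 and 6.19 in MEFs to 8.48, 8.46 and 8.07 in the KSR lines. Its paralogs fell, Rcor3 by 1.28 ± 0.15 and Rcor1, which fell by 0.82 ± 0.16 (limma, adjusted p from 0.00864 to 0.0375 for the 3 scaffold genes). The deacetylase gene Hdac1 rose by 0.72 ± 0.15. Of 9 partners of Kdm2b in variant PRC1.1, 3 rose and 0 fell, with a median of 0.23, against those same shares. Rybp rose by 1.74 ± 0.21, the deubiquitinase gene Usp7 by 1.59 ± 0.13 and Skp1 by 0.79 ± 0.12. Pcgf1 and Bcor, which define this complex, were 0.09 ± 0.15 and 0.23 ± 0.39 higher without passing (limma, adjusted p = 0.732 for each). Cdkn2b and Cdkn2a of the Ink4a/Arf locus, which Kdm2b is known to repress, fell by 1.77 ± 0.11 and by 0.92 ± 0.10 (limma, adjusted p = 0.00763 and 0.0128). In O4-4, the KSR line with the lowest Kdm2b, Cdkn2b was at 6.28, between the other lines. Cdkn2a was at 5.50 there, the lowest of the lines, against 5.62 and 5.67 in O4-1 and O4-2. The relation of Kdm2b to this locus was not tested.

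Genes of cosubstrate supply and of the hypoxia response were read beside the enzymes that depend on them. Of 9 genes for 2-oxoglutarate, succinate and ascorbate supply 1 rose and 1 fell in the KSR lines, Idh3a by 0.48 ± 0.10, while Idh2 fell by 1.06 ± 0.14 (limma, adjusted p = 0.0422 and 0.0171). These counts are near the shares over all genes, 12.1% and 14.3%, and are no result about the list. The vitamin C transporter gene Slc23a1 was at 5.39 and 5.31 in O4-1 and O4-2 and between 4.08 and 4.30 on the other 5 arrays, and Slc23a2 was at 7.09 and 7.29 in MEFs and between 6.98 and 7.48 elsewhere. Of 14 hypoxia-induced genes 0 passed in limma for KSR lines against MEFs, with 3 at an unadjusted p under 0.05 and a median of 0.18. They went both ways, with 9 higher and 5 lower, where 10020 and 9914 of all genes were. Pdk1 was 1.96 ± 0.75 and Slc2a1 1.56 ± 0.56 higher, and Adm was at -2.27 ± 0.52. The KSR lines differed in these genes, with a median SD of 0.36 over the list and 0.16 over all genes. In O4-1, O4-2 and O4-4 Pdk1 was at 8.22, 8.38 and 6.41, and Slc2a1 at 10.01, 10.94 and 9.30. Kdm3a was highest in O4-4, at 8.95. Not every gene of the list was lowest in O4-4, since Egln1 was highest there, at 7.01. Kdm3a, a gene known to be induced under hypoxia, rose by 1.63 ± 0.33. In MEFs in iCD1 12 of the 14 were lower than in FBS, with a median of -0.46, and Kdm3a was 0.29 higher. Of all 19938 genes 10571 were lower in iCD1. In 2i 12 of 14 were higher in iPS cells and 13 of 14 in ES cells than in the KSR lines, with medians of 0.39 and 0.53 and 0 passing (limma, 1 and 2 at an unadjusted p under 0.05). Of all genes 10454 and 9977 were higher in these comparisons. Kdm3a was 0.17 higher in iPS and 0.41 higher in ES cells, without passing. Kdm4b, also known to be induced under hypoxia, was 0.56 and 0.43 higher, also without passing. In the KSR lines Kdm4b was 0.11 ± 0.17 higher than in MEFs, without passing, and in iCD1 against FBS it was at -0.18. The relation of Kdm3a and Kdm4b to this list was not tested.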

How the data were processed

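Per the labels, total RNA of 7 cultures was hybridised to Affymetrix arrays. The authors deposited log2 expression for each probe set; the submitters' processing notes name RMA and Partek, with no version or setting found in the sources used. These values were used as deposited, with array medians between 4.97 and 5.03 and without detection calls. Groups follow the titles; the source and description fields of some samples name other cells or media. Probe sets with 1 symbol (21789 of 28853) were kept, with the highest mean chosen for genes with several, which left 19938 genes.

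Tests used limma 3.58.1 (R 4.3.3; lmFit and eBayes, two-sided) on 1 fit of 5 groups, with Benjamini-Hochberg adjustment over all genes, and the code was tested on simulated data. Residual degrees of freedom were 2, the prior added 1.62, so single arrays borrow the spread of the KSR lines. Comparisons of 1 array with 1 have no test. Intervals are 95% intervals from limma.

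The genes and lists were chosen with earlier results of these data known. Named were all 10 genes, the largest differences of each list or genes that work with a demethylase, and, for 3 genes, the 3 nearest profiles. Some genes of the lists are not reported here. Alternatives were other normalizations, filters, probe set rules, references and groupings, and leaving out each KSR line.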

Additional observations from a re-analysis of the deposited data

How the results depend on the processing

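Of the 10 demethylase genes the KSR lines against MEFs had 4 passing in limma as reported. The count was 5 with quantile normalization and with only genes at or above the median mean, 6 with the 5 pluripotent arrays as 1 group, and 4 with median centring, with averaged probe sets and with a variance trend. It was 1 with all probe sets tested, where Kdm1a, Kdm3a and Kdm4c had adjusted p of 0.0537, 0.0673 and 0.0510 in limma, 1 with MEFs in FBS alone and 1 with MEFs in iCD1 alone. Leaving out 1 KSR line gave 0 to 2. Over all genes limma called 5260, 2968 with MEFs in FBS alone, and 0 to 2776 without 1 KSR line. The cause was not tested; each alternative with 2 lines has 1 residual degree of freedom less.

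Signs turned only in differences that did not pass. Kdm4b against MEFs was between -0.02 and 0.19 without 1 line. For iPS cells in 2i, Kdm4c was at 0 with quantile normalization, 0.08 with both 2i arrays as 1 group and between -0.23 and 0.02 without 1 line. Kdm5b was at -0.04 with both 2i arrays as 1 group, Kdm3a between -0.08 and 0.39 and Kdm2a between -0.09 and 0.09 without 1 line. For ES cells, Kdm1a was between -0.09 and 0.14, Kdm2b between -0.52 and 0.23 and Kdm4a between -0.15 and 0.02 without 1 line. Counts of genes differing 2-fold in the comparisons of 1 array with 1 fell with the filter on low values, which tests fewer genes. No paired analysis was possible because only line O4-1 occurs in more than 1 group, so the groups share fewer than 2 numbers.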
